A study of Mus musculus with 18 samples.

Results

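The keratin and keratin-associated genes are 108 of the 35858 genes on the assembled chromosomes of the deposited annotation. They were picked out by name alone (Krt or Krtap followed by a number), so no measured value decided which genes belong. The family itself was chosen with earlier results of these data known. There were 54 keratin genes and 54 keratin-associated (Krtap) genes. On mm10, 49 of them lay on chromosome 11 (27 keratin genes on either side of 22 Krtap genes), 27 on chromosome 15 (the type II keratin genes with *Krt18*) and 23 Krtap genes on chromosome 16. A further 5 Krtap genes lay on chromosome 7, 3 on chromosome 10 and 1 on chromosome 1. For each gene a window was drawn from 5 kb before to 5 kb after its transcripts, and its called share is the percentage of the bases of that window inside H3K9me3 peaks. The windows of 66 of the 108 genes overlapped the window of another of them, so neighbours shared peaks and are not independent.

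H3K9me3 was measured by ChIP-seq in E14TG2a mouse embryonic stem cells (mESCs), a male pluripotent line, grown in serum with LIF. The 6 peak lists analysed here come from 3 genotypes with 2 libraries each, which are wild-type, *Uhrf1* KO and *Dhx9* KO. UHRF1 binds hemimethylated DNA and brings the maintenance DNA methyltransferase DNMT1 to it, and DHX9 is an RNA helicase. The study compared *Uhrf1* KO with wild-type cells to ask whether UHRF1 is needed for H3K9me3 at endogenous regions. Its methods describe the *Uhrf1* KO cells as clonal CRISPR-Cas9 lines made in mESCs that carry an inducible heterochromatin system, a TetR-KRAB fusion with a tetO-eGFP reporter. The 2 libraries of each genotype are biological replicates in the methods. Whether the 2 *Uhrf1* KO libraries come from separate clones, and how the *Dhx9* KO line was made, are not given in the sources used here. Peaks of a histone mark do not measure the product of a gene, so the knockouts themselves were not checked here.

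H3K9me3 is the trimethylated lysine 9 of histone H3, a mark of constitutive heterochromatin and of genes silenced outside their own lineage. Keratins are the intermediate filament proteins of epithelia, and each filament pairs a type I with a type II protein. Simple epithelia use *Krt8* with *Krt18*, basal epidermis *Krt5* with *Krt14*, and suprabasal epidermis *Krt1* with *Krt10*. Hair keratins build the hair shaft, where keratin-associated proteins, short and rich in cysteine or in glycine and tyrosine, form the matrix between the filaments. Type I and type II genes sit in separate clusters, and in mESCs most of these genes belong to lineages not yet formed.

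Across the whole genome the lists held between 70195 and 125453 peaks covering 203 to 416 Mb, with 6703081 to 20875020 ChIP reads inside peaks. *Uhrf1* KO replicate 1 was the lowest in each of these values and had 32.9 reads per kb called, against 48.3 to 51.4 in the other 5 libraries. It had 65 distinct peaks in keratin windows, while *Uhrf1* KO replicate 2 had 110, the wild-type libraries 140 and 150, and the *Dhx9* KO libraries 138 and 144. Peaks with identical limits had the same number of background reads in 100% of cases between any wild-type and *Dhx9* KO lists, and in 1.85% to 4.29% of cases between a *Uhrf1* KO list and one of the others. The methods name the input of wild-type cells as the background for peak calling, but the *Uhrf1* KO lists hold other background read counts, and the effects of genotype and of background on the calls cannot be told apart. A stretch without a peak has no read count in these lists, so the depth of a loss is not known. With 2 libraries against 2, no exact two-sided permutation test of a single value can give a p below 0.333, so called shares are described without a test.

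In wild-type cells the keratin clusters on chromosomes 15, 11 and 10 were widely covered by H3K9me3, and the Krtap cluster on chromosome 16 was sparsely covered. A peak was present in both wild-type libraries at 82 of 108 keratin and Krtap windows, against 59.7% of all genes. The transcript start itself lay inside a peak in both libraries at 60 of the 108 genes, against 13.1% of all genes. The mean called share of a window was 40.2% and 40.9% over the 108 genes in the 2 wild-type libraries, and 19.6% and 18.8% over all genes. Keratin genes averaged 59.8% and 60.5%, and Krtap genes 20.5% and 21.3%. By start, 40 of 54 keratin genes and 20 of 54 Krtap genes were inside a peak in both libraries.

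**Figure D1:**
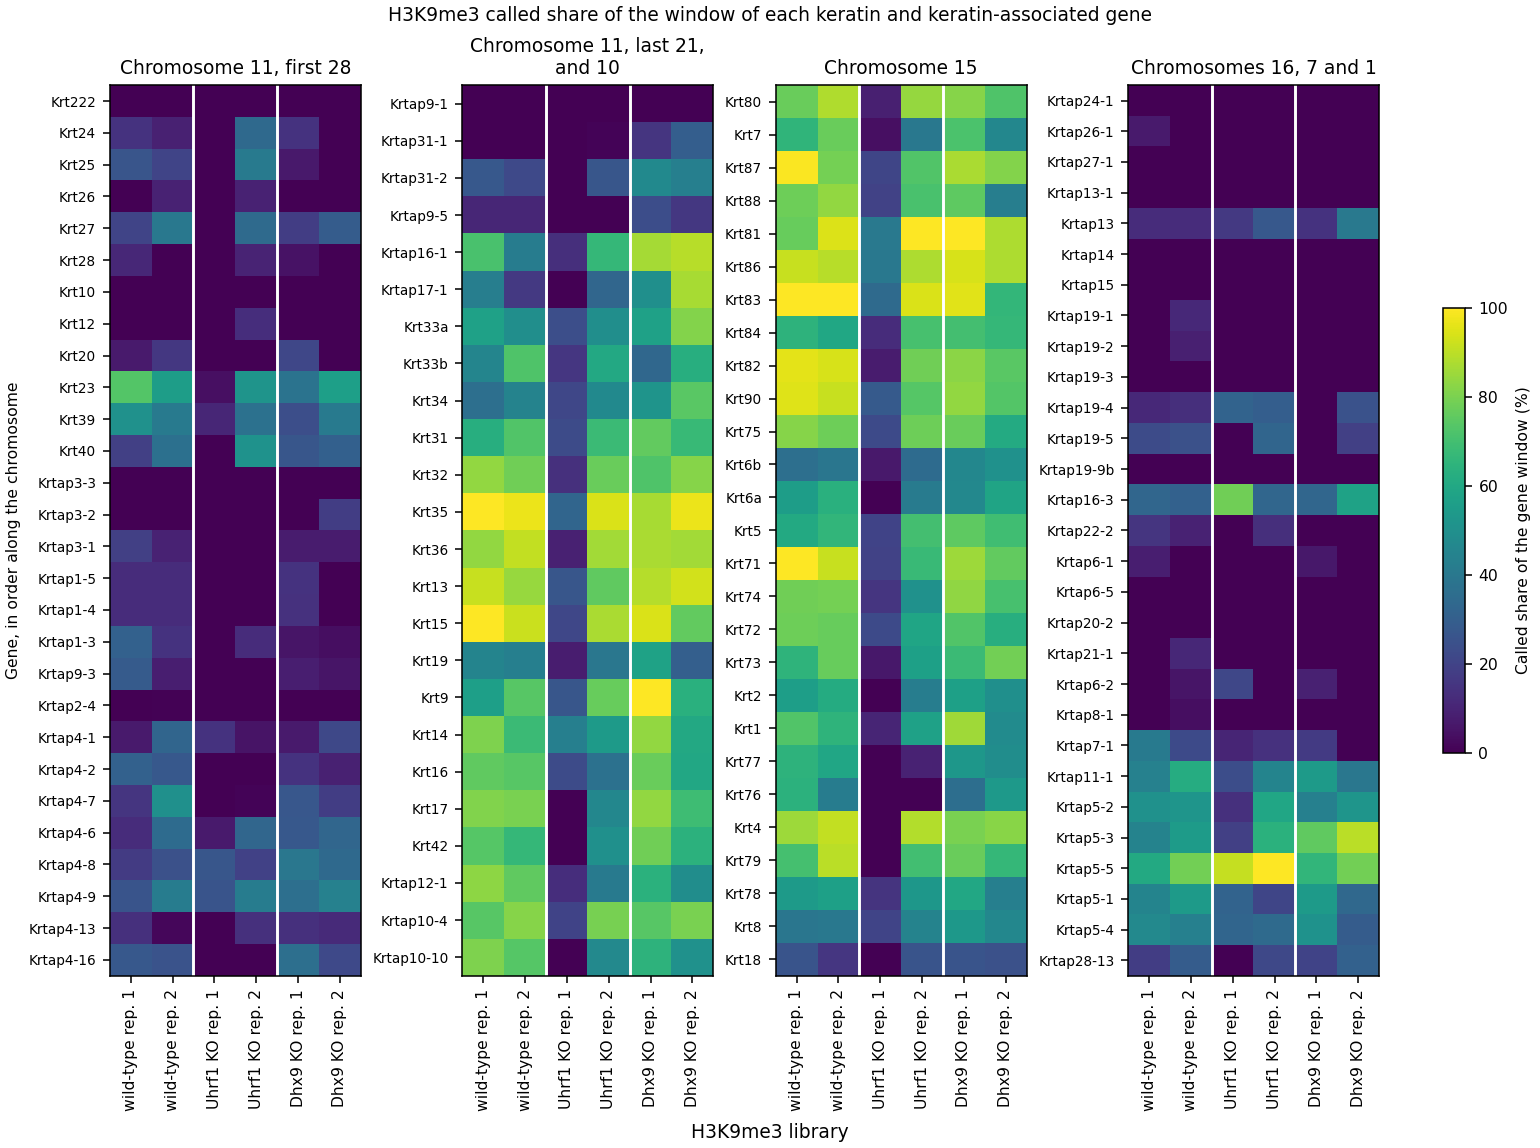
Called share of the window (colour, %) of each of the 108 genes (vertical, in chromosome order) in each of the 6 H3K9me3 libraries (horizontal). The chromosome 15 and distal chromosome 11 genes were high in wild-type and Dhx9 KO libraries and low in Uhrf1 KO replicate 1, while many chromosome 16 genes were at 0 in every library.

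The cluster on chromosome 15, from 101343315 to 102037026, spans 693.7 kb. Peaks covered 62.3% and 62.5% of it in wild-type cells, at 48.3 and 45.7 ChIP reads per kb called. The cluster on chromosome 11, from 99227761 to 100274871, was covered over 32.5% and 30.3% of its 1047 kb, at 47.6 and 47.2 reads per kb. The chromosome 16 cluster, from 88605709 to 89576183, was covered over 5.85% and 6.99% of its 970 kb, yet its called stretches held 53.0 and 49.7 reads per kb. The clusters thus differed in how much of them was called. The density of reads inside called stretches was similar, and near the 50.1 and 48.7 reads per kb over all peaks of these libraries. The *Krtap5* cluster on chromosome 7 was covered over 47.7% and 48.3% and the small *Krtap10* and *Krtap12* cluster on chromosome 10 over 59.6% and 59.7%.

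**Figure D2:**
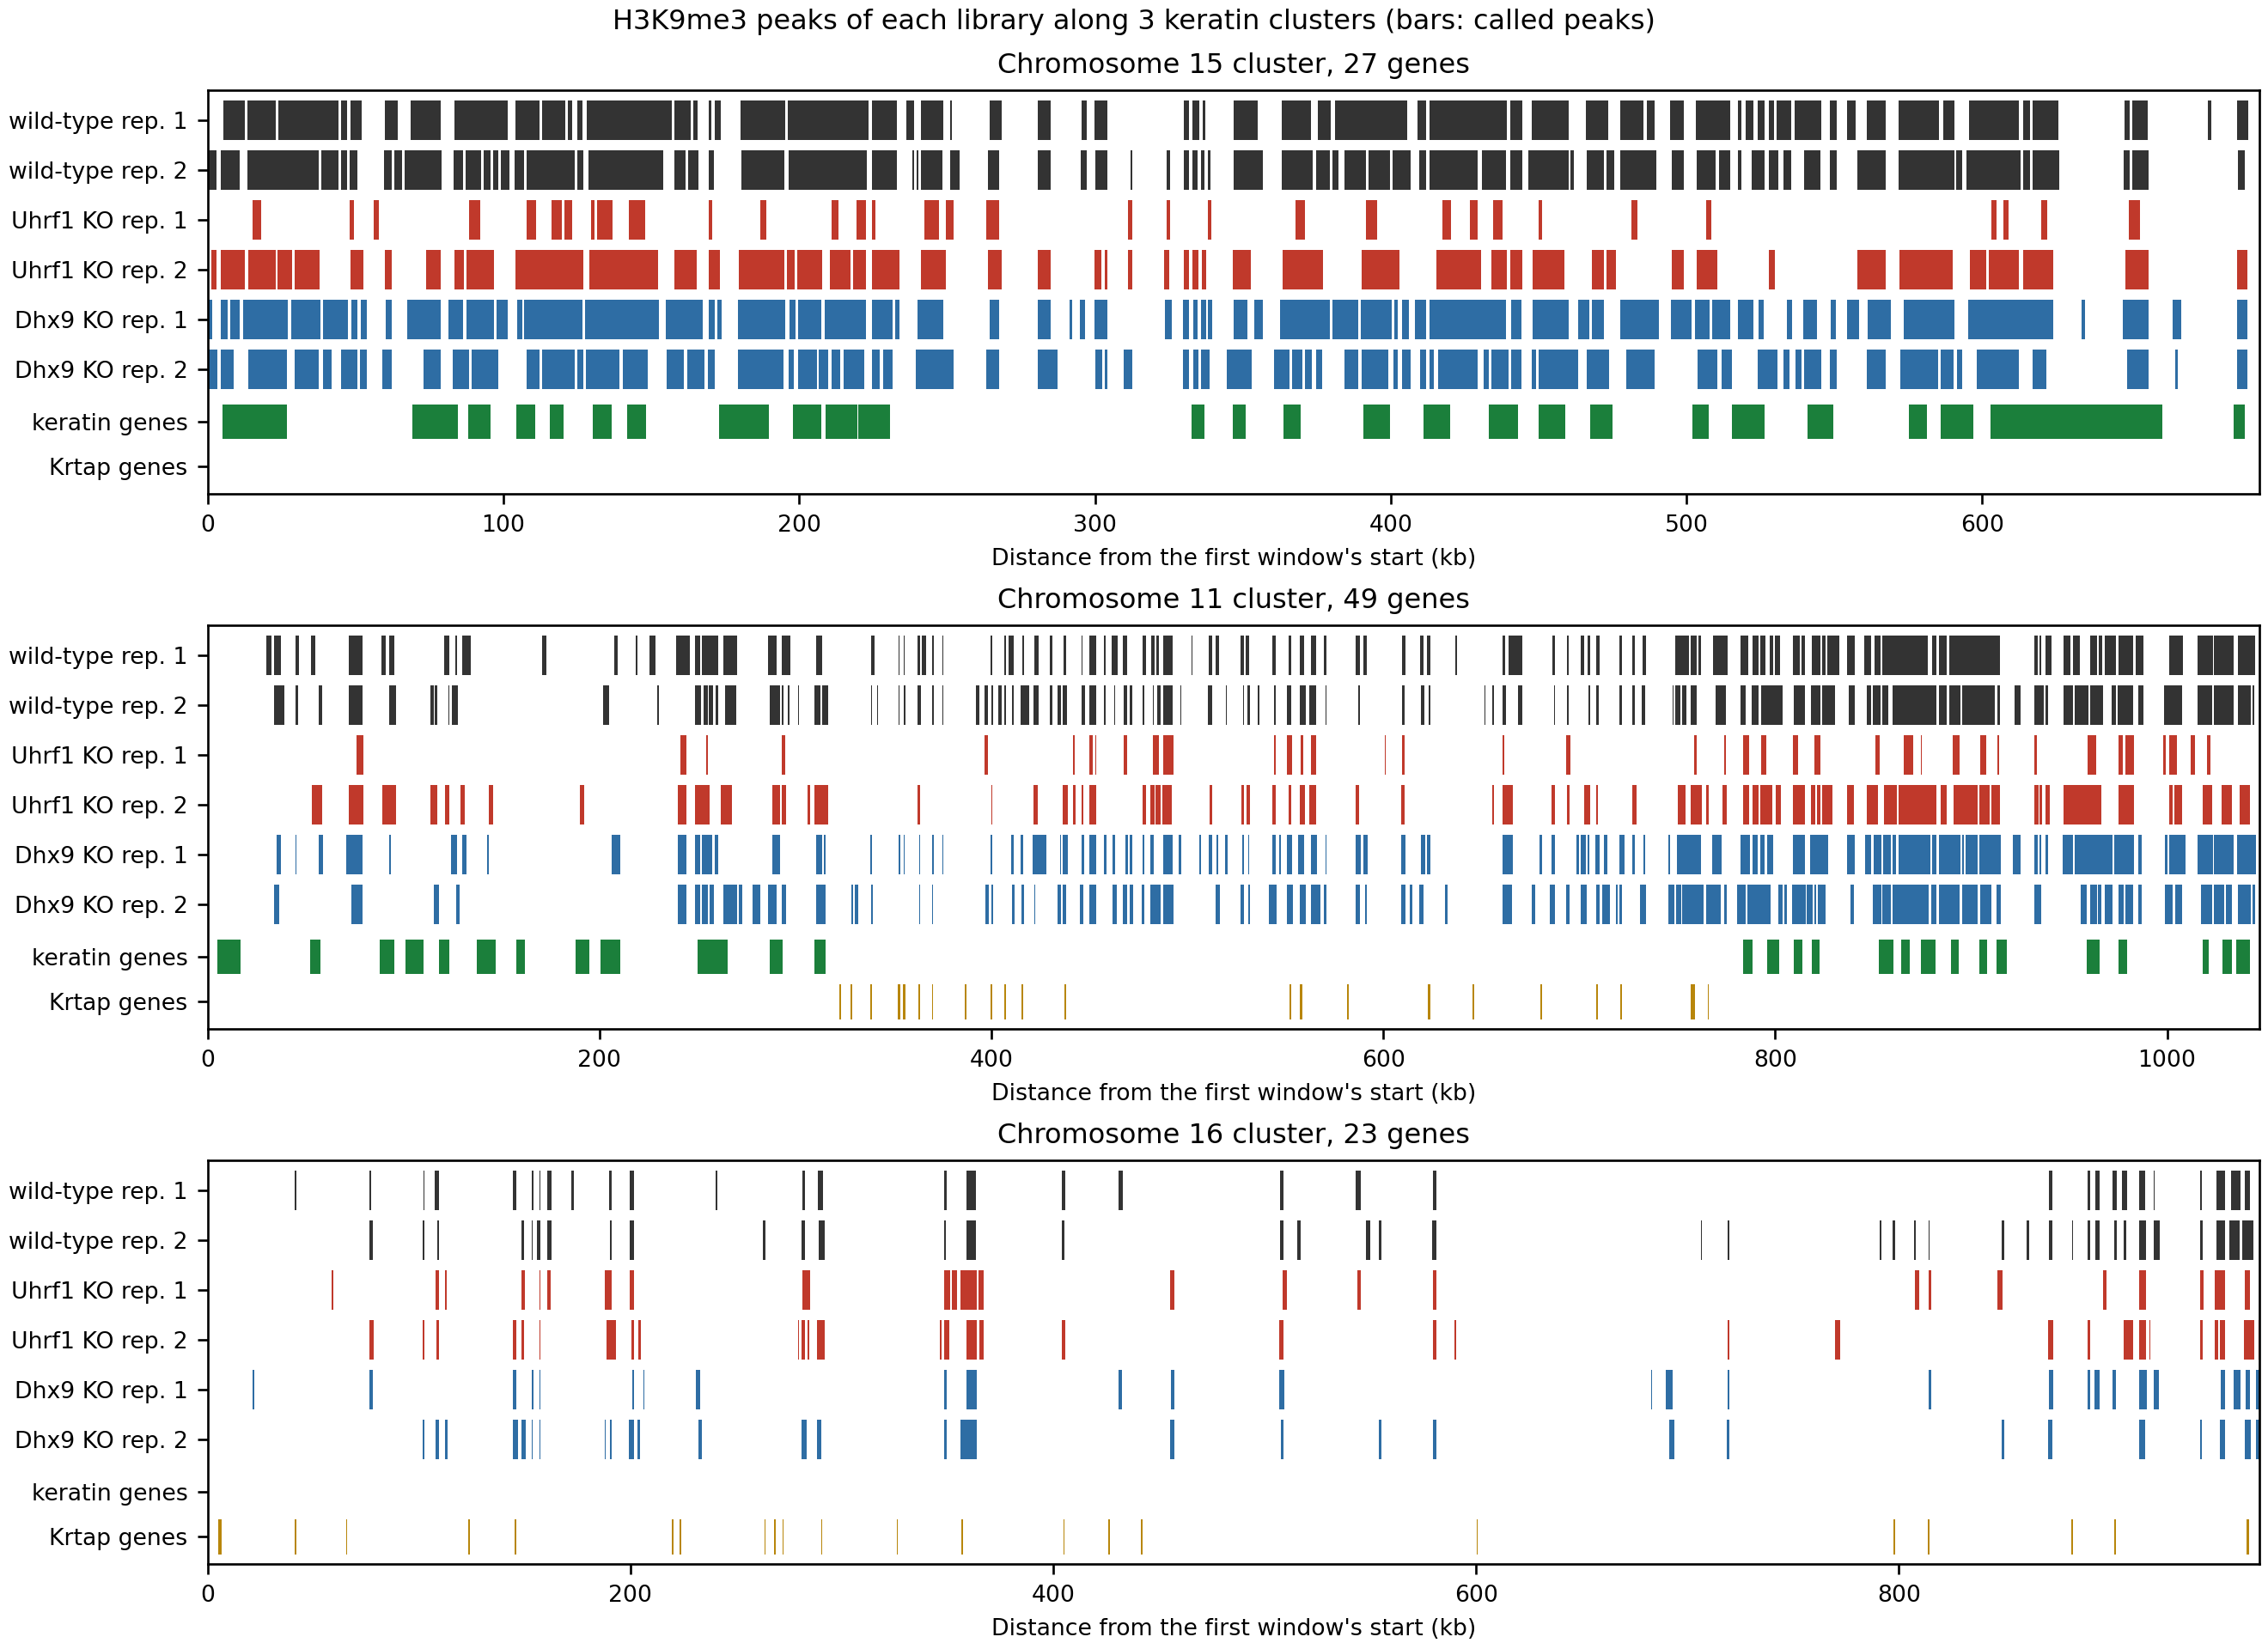
Called peaks (bars) of each library and the spans of the keratin and Krtap genes along the clusters on chromosomes 15, 11 and 16. The horizontal axis is the distance in kb from the start of the first window. In wild-type cells the bars fill 62.3% and 62.5% of the chromosome 15 cluster and 5.85% and 6.99% of the chromosome 16 cluster.

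Of the keratin groups, the type II hair keratins had the highest mean called share in the wild-type libraries. The 6 type II hair keratins averaged 88.1% and 86.0% in the wild-type libraries, and all 6 starts lay inside a peak in both. *Krt83*, a hair shaft keratin, was called over 100% of its window in both, and *Krt82*, another, over 95.9% and 93.8%. *Krt81*, their neighbour, had 76.9% and 94.6%. These neighbours were thus called over most or all of their windows. The 4 type II keratins of the inner root sheath followed with 80.4% and 81.1%. The 9 type I hair keratins averaged 59.9% and 64.8%, with *Krt35* at 100% and 97.1% and *Krt31* at 62.6% and 72.7%. The longest region merged from the peaks of all 6 libraries on chromosome 15, 49.6 kb from 101347601 to 101397200, covered *Krt80*, an epithelial type II keratin. The next, 40.4 kb from 101471001 to 101511400, ran over *Krt86* and *Krt83* and into the window of *Krt84*.

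Keratins of stratified epithelia did not split clearly by cluster. The 12 type II genes of stratified epithelia averaged 64.9% and 66.6% in wild-type cells, and the 10 type I genes 57.3% and 54.9%. By median the order was the reverse, with 64.5% and 64.1% for type II and 74.7% and 71.2% for type I. Of the basal epidermal pair, *Krt5* had 60.7% and 65.7% and *Krt14* had 80.5% and 68.3%, with both starts inside a peak in all 6 libraries. The suprabasal pair was unlike in the mark: *Krt1* on chromosome 15 had 72.7% and 64.8%, while *Krt10* on chromosome 11 had no peak in any of the 6 libraries. *Krt13*, of the lining of the mouth and oesophagus, had 91.6% and 84.6%, and *Krt15*, of basal keratinocytes and the hair follicle bulge, had 100% and 91.9%. Both lie in a region of 31.6 kb on chromosome 11 from 100111201 to 100142800, far from *Krt10* at 99385254 to 99389699.

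The inner root sheath, which encases the growing hair, uses its own keratins. Its 4 type II genes averaged 80.4% and 81.1%, with *Krt71* at 100% and 91.6%. Its 4 type I genes averaged 14.5% and 17.5%, with *Krt25* at 26.4% and 20.7%. In this group the type II values were above the type I values in both libraries. Besides *Krt10*, the only keratin gene without a peak in any of the 6 libraries was *Krt222*, and 11 Krtap genes had none either.

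The simple epithelial keratins, the first to be made in the embryo, had peaks near them and the starts of most of those named here lay outside peaks. *Krt8* had a called share of 39.1% and 40.2% in wild-type cells, 20.4% and 44.7% in *Uhrf1* KO cells, and 53.5% and 46.2% in *Dhx9* KO cells. Its partner *Krt18* had 26.1% and 15.9%, then 0% and 26.1%, then 26.1% and 24.6%. *Krt19*, on chromosome 11, had 44.9% and 43.1%, then 7.94% and 39.6%, then 57.7% and 30.4%. The starts of *Krt8*, *Krt18* and *Krt19* lay outside peaks in all 6 libraries, although peaks lay within 5 kb. *Krt7* and *Krt23* differed in this. The start of *Krt7*, of ducts and glands, was inside a peak in both wild-type libraries and in *Dhx9* KO replicate 1, and in neither *Uhrf1* KO library. Its called share was 65.4% and 77.2% in wild-type, 3.96% and 40.2% in *Uhrf1* KO, and 71.7% and 46.5% in *Dhx9* KO cells. The start of *Krt23*, a type I keratin, was inside a peak in both wild-type libraries and in replicate 2 of each knockout, and its called share in wild-type cells was 73.3% and 55.7%. *Krt20*, of gut epithelium, had 7.08% and 16.2% in wild-type, no peak in either *Uhrf1* KO library, and 21.2% and 0% in *Dhx9* KO cells.

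The sequence just upstream of a start is shown for genes whose starts differ in the mark, with each CG dinucleotide, the site of DNA methylation, in capitals. Each run is the 250 bases before the start in RefSeq's promoter table for GRCm38.p6 (the mm10 assembly), written on the strand of the gene. *Krt7* (chr15:101412153-101412402, plus strand), *Krt18* (chr15:102027966-102028215, plus strand), *Krt8* (chr15:102004343-102004592, minus strand) and *Krt5* (chr15:101712906-101713155, minus strand) compare called and uncalled starts on 1 chromosome.
Krt7: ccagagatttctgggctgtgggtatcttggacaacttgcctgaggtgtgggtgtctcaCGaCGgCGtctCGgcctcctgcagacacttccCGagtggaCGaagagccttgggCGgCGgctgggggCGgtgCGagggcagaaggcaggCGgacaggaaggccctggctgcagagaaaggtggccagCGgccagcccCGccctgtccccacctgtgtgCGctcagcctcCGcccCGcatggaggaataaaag
Krt18: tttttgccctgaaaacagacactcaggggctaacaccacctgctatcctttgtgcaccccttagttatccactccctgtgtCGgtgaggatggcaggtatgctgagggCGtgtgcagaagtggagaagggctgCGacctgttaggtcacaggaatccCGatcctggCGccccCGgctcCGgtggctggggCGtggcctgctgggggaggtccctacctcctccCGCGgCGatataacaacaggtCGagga
Krt8: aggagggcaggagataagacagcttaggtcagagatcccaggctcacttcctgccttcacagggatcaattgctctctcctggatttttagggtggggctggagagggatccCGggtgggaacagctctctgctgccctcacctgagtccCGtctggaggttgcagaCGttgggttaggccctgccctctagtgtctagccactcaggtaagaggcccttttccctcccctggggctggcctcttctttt
Krt5: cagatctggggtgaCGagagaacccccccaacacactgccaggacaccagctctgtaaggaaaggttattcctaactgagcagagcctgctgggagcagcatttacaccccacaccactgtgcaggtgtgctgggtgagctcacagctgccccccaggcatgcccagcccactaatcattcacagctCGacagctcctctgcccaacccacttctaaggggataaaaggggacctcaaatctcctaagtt
The *Krt7* and *Krt18* runs hold 16 and 12 CG dinucleotides, and their starts were in a peak in 3 and 0 libraries. The *Krt8* and *Krt5* runs hold 3 and 2, and their starts were in a peak in 0 and 6 libraries. In these 4 genes the number of CG dinucleotides and the presence of a peak at the start did not go together in one direction. Promoters within 50 bases of the annotated start were at hand for 72 of the 108 genes, and their median was 3 CG dinucleotides, against 6 over all promoters of the table. At least 6 were found in 5 of the 72, against 50.35% of all promoters, and *Krt7* and *Krt18* were the only 2 above 6. The motif searched was CG, which reads the same on both strands, and at least 1 was present in 84.7% of the 72 and in 92.1% of all.

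The keratin-associated genes differed between clusters. The 22 on chromosome 11 averaged 18.5% and 17.7% in wild-type cells, and 8 had their start inside a peak in both libraries. The 23 on chromosome 16 averaged 8.52% and 9.44%, with 4 such starts. The 5 *Krtap5* genes on chromosome 7, which encode cysteine-rich hair proteins, averaged 49.7% and 56.8%, and the 3 on chromosome 10 averaged 79.2% and 76.9%. The small clusters were covered more widely than the Krtap genes of chromosomes 11 and 16. On chromosome 10, *Krtap12-1* had 83.1% and 75.6%, *Krtap10-4* had 74.0% and 81.7%, and *Krtap10-10* had 80.5% and 73.5%. *Krtap6-1*, of the glycine- and tyrosine-rich class, had 8.42% and 0%. *Krtap28-13*, alone on chromosome 1, had 18.2% and 29.1%.

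Krtap genes have a single short exon, so a peak can cover the whole gene. Regions that overlap a keratin window were ranked by whichever wild-type log2 fold over background was smaller. Regions between the windows were not ranked. The log2 fold of a region in a library is that of its strongest peak there, not of the whole region. A long region can therefore rank high through a short peak. The highest-ranked regions on chromosome 11 were at *Krtap9-3* and *Krtap1-3*. The *Krtap9-3* region, from 99597401 to 99598200, is 88.2% exon and had log2 folds of 2.36 and 2.70. The *Krtap1-3* region, from 99590001 to 99591600, had 2.18 and 2.19. Both were narrow and lay on the gene itself. On chromosome 15 the strongest was at *Krt6b*, a keratin of skin appendages and wounds, from 101679201 to 101683000, with 2.40 and 2.63. On chromosome 16 it was at *Krtap16-3*, from 88961801 to 88969600, with 2.61 and 2.76. On chromosome 7 it was at *Krtap5-5*, from 142219001 to 142244000, with 2.49 and 2.38. These regions lay 92.7% and 95.3% outside the genes themselves. The start of *Krtap16-3* was in a peak in 2 libraries and that of *Krtap5-5* in 6. Near-identical Krtap copies can share reads. Per the methods, Bowtie2 was run with its default settings, which report a single alignment for each read, so a read that matches several copies could be placed at any of them and values of single Krtap genes are uncertain.

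Called shares of the keratin windows followed the base composition of the windows. Across the 108 genes the Spearman correlation of the mean wild-type called share with GC content was 0.85, and over all 35858 genes it was 0.42. Within clusters it was 0.71 on chromosome 11 (n = 49), 0.56 on chromosome 15 (n = 27) and 0.41 on chromosome 16 (n = 23). The median GC content of the windows was 49.9% on chromosome 15, 43.7% on chromosome 11, 38.5% on chromosome 16 and 44.6% over all genes. For these 3 clusters the order by GC content was also the order by mean called share. The chromosome 7 genes, with a median of 45.5%, lay between those of chromosomes 15 and 11 in both. The chromosome 10 genes broke the order, with a median of 48.6% and called shares above those of chromosome 15. *Krtap28-13* on chromosome 1, at 44.4%, broke it too, with called shares below the chromosome 11 means. With the share of soft-masked repeats the correlation was -0.56 over the 108 genes. Genes of a cluster share libraries, windows and base composition, so these values describe the genes and carry no test, and the part of GC content in the called shares was not tested.

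**Figure D3:**
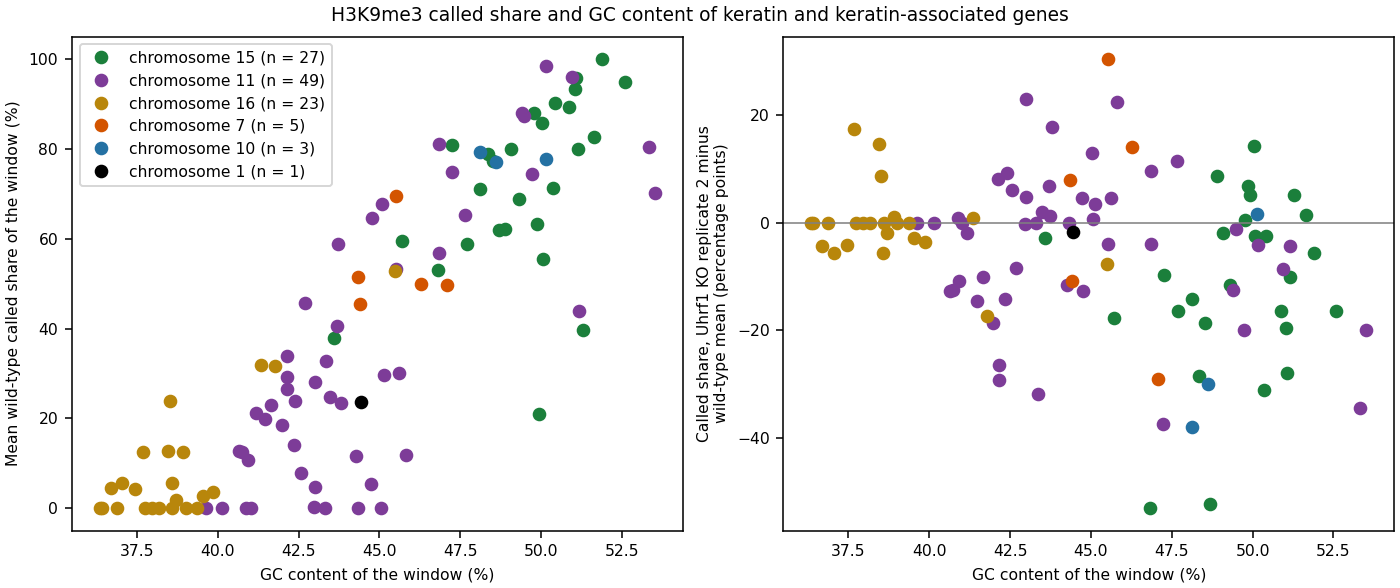
GC content of the window (horizontal, %) against the mean wild-type called share (left, %) and against the called share of Uhrf1 KO replicate 2 minus the wild-type mean (right, percentage points). Each point is 1 of the 108 genes, coloured by chromosome, and on the left the chromosome 15 genes lie toward the upper right and the chromosome 16 genes toward the lower left.

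For comparison, other gene families from lists chosen for the tissue were measured in the same way. The 46 genes of the cornified envelope and epidermal differentiation complex, which act in the same cells, averaged 4.60% and 5.66% in wild-type cells, with 1 start inside a peak in both libraries. The 15 other intermediate filament genes averaged 27.6% and 25.7%, with 3 such starts, and the 64 serpin genes, also clustered, 35.7% and 34.1%, with 24. The 1124 olfactory receptor genes averaged 8.42% in both libraries, and the 42 Hox genes 7.35% and 7.13%. The keratin genes on chromosomes 15 and 11 had mean shares above those of each of these lists, and the Krtap genes of chromosome 16 had shares close to those of olfactory receptor genes. No test was made between lists.

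In *Uhrf1* KO cells the called share of the keratin clusters was lower, by much in replicate 1 and by less in replicate 2. The mean over the 108 genes was 10.8% and 35.0%, against 40.2% and 40.9% in wild-type cells, and over all genes it was 5.94% and 13.1%. Of the 82 genes with peaks in each wild-type library, 9 lost them in both *Uhrf1* KO libraries, against 17.6% of all such genes. None of the 16 genes without a wild-type peak gained one in both *Uhrf1* KO libraries (0 of 16, against 2.78%). Few of the genes lost or gained every peak. Without *Uhrf1* KO replicate 2 the number lost was 30, and without wild-type replicate 1 it was 14, and without *Uhrf1* KO replicate 1 the number gained was 2. For these counts with a library left out, no value over all genes was computed. Of all genes, 39.8% had a peak in *Uhrf1* KO replicate 1, against 64.8% in each wild-type library. Both *Uhrf1* KO libraries were below both wild-type libraries at 45 of 94 genes with a peak in any of the 4, against 47.5% of all genes, and above both at 3, against 7.7%. These shares were close to or under those of all genes.

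**Figure D4:**
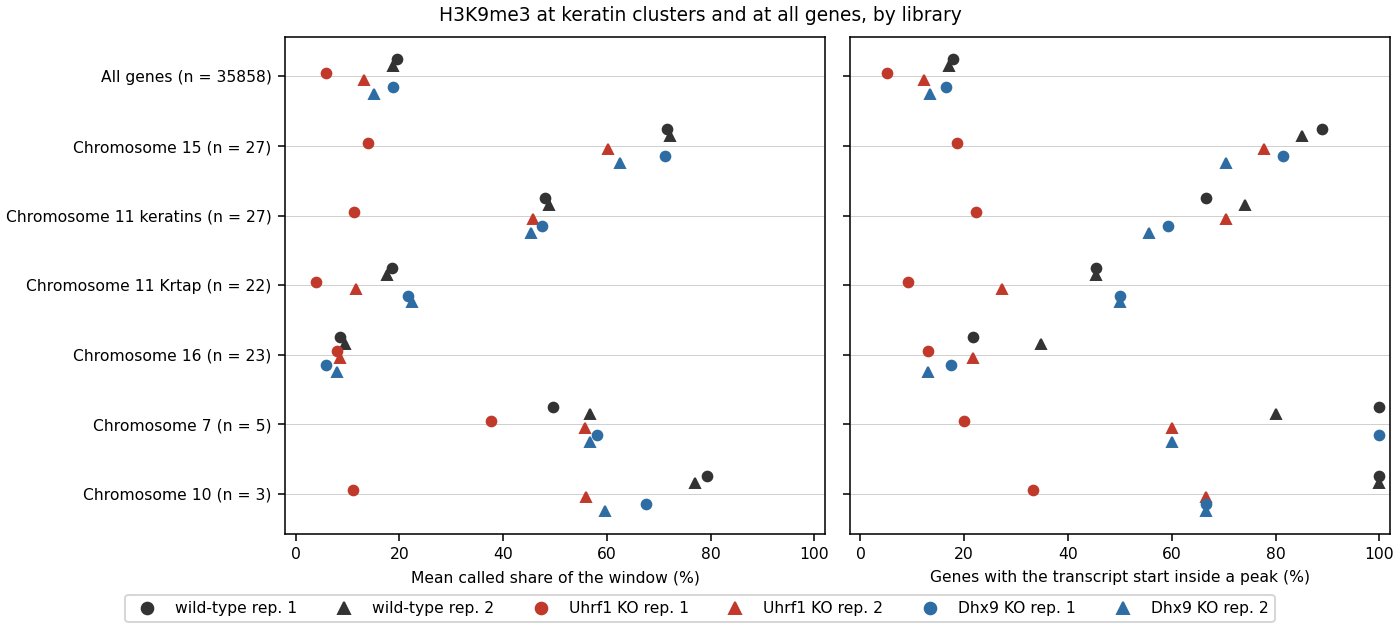
Mean called share of the window (left, %) and share of genes with their transcript start inside a peak (right, %) for all genes and for each group of keratin genes, with 1 point per library. On chromosome 15 the wild-type libraries sit at 71.6% and 72.2% on the left, Uhrf1 KO replicate 1 at 13.9% and replicate 2 at 60.1%.

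The clusters did not move alike. The chromosome 15 genes averaged 71.6% and 72.2% in wild-type against 13.9% and 60.1% in *Uhrf1* KO cells, and the chromosome 11 keratins 48.0% and 48.8% against 11.2% and 45.7%. The chromosome 11 Krtap genes averaged 4.00% and 11.6% in *Uhrf1* KO cells, and the chromosome 10 genes 11.1% and 55.9%. On chromosome 16 the averages were 7.90% and 8.52%, near the wild-type 8.52% and 9.44%, and on chromosome 7 they were 37.8% and 55.7%. Replicate 2 had more ChIP reads inside peaks than replicate 1. In replicate 2 the groups on chromosomes 15, 10 and 11 were below both wild-type libraries, while the chromosome 7 genes lay between them. By library, *Uhrf1* KO replicate 2 alone was below both wild-type libraries at 46 of 94 genes, against 49.8% of all genes, and above both at 17, against 22.4%.

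The genes that lost their peaks were *Krt20*, *Krt76* and 7 Krtap genes of chromosome 11, which were *Krtap3-1*, *Krtap1-5*, *Krtap1-4*, *Krtap9-3*, *Krtap9-5*, *Krtap4-2* and *Krtap4-16*. The wild-type libraries shared no peak at *Krt20*. There the peak of replicate 1 lay between 99434001 and 99438200, and that of replicate 2 between 99429601 and 99432800. *Krt76*, of the palate and tongue, had the longest loss. Its called share was 64.2% and 42.0% in wild-type, 0% in both *Uhrf1* KO libraries, and 36.2% and 53.9% in *Dhx9* KO cells. A region of 9.20 kb over it, between 101879801 and 101889000 of chromosome 15, held 328 and 234 ChIP reads in wild-type cells, with log2 folds of 0.62 and 0.83. *Krtap9-3* had 28.9% and 8.42% in wild-type cells, 0% in both *Uhrf1* KO libraries, and 8.42% and 5.58% in *Dhx9* KO cells. The strong wild-type peaks over its exon, with 55 and 67 reads, were among those lost. *Krtap4-2* had 31.0% and 27.3%, and *Krtap4-16* had 27.4% and 25.6%, before 0% in both. *Krtap3-1*, a high-sulfur protein gene, had 18.9% and 9.43%.

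The upstream sequences of *Krt76* (chr15:101892921-101893170, minus strand) and *Krtap9-3* (chr11:99598107-99598356, minus strand) are shown as genes whose peaks were lost, and that of *Krtap5-5* (chr7:142229972-142230221, minus strand) as a gene whose peaks were kept in every library. Capitals again mark CG, and the source and build are the same.
Krt76: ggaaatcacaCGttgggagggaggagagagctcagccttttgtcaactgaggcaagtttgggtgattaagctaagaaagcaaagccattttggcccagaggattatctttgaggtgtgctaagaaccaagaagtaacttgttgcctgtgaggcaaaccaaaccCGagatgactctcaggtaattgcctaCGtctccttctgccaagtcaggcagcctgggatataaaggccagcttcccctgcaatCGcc
Krtap9-3: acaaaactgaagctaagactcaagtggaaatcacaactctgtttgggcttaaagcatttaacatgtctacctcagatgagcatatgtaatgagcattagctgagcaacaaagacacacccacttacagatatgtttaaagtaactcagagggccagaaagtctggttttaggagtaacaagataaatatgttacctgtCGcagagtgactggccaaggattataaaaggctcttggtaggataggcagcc
Krtap5-5: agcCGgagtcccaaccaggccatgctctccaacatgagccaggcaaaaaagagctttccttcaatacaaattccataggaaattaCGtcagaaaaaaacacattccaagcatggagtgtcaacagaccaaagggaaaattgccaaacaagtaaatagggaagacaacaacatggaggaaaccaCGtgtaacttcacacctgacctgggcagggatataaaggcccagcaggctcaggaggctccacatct
They hold 4, 1 and 3 CG dinucleotides, each below the median of 6 over all promoters. The starts of *Krt76* and *Krtap9-3* were in a peak in 4 and 3 libraries, none of them *Uhrf1* KO, and that of *Krtap5-5* in all 6.

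By merged regions, 22 of 106 keratin regions called in each wild-type library were lost in *Uhrf1* KO cells, against 24.2% of all regions, and 1 of 49 with a peak in both *Uhrf1* KO libraries was gained, against 8.51%. The gained region lies at *Krtap4-6* between 99669401 and 99670600 of chromosome 11, with 28 and 50 ChIP reads. The lost keratin regions were short, with a median of 2300 bp and 91.2 wild-type reads. The 84 that kept a peak in at least 1 *Uhrf1* KO library had a median of 7700 bp and 243.5 reads. Over all regions the lost ones had a median of 3400 bp and 97.5 reads and the kept ones 5000 bp and 148 reads. In *Uhrf1* KO cells the 6 type II hair keratins averaged 26.0% and 84.0% called, and the 9 type I hair keratins 16.7% and 63.5%, so replicate 1 was low and replicate 2 near wild-type in both groups. In replicate 1 they ran from 0% at *Krt40*, a type I hair keratin, and 7.50% at *Krt82* to 40.4% at *Krt81*, which had 100% in replicate 2. *Krt4*, of the lining of the oesophagus, had 85.2% and 91.0% in wild-type cells and 0% and 88.5% in *Uhrf1* KO cells. *Krt77*, an epidermal keratin, had 64.7% and 59.1%, and then 0% and 9.53%. *Krt4*, *Krt40* and *Krt77* were chosen here after their values were seen.

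The called share of 3 Krtap genes was higher in both *Uhrf1* KO libraries than in both wild-type ones. *Krtap5-5* had a called share of 60.6% and 78.5% in wild-type against 91.1% and 100% in *Uhrf1* KO cells, so the 2 groups did not overlap. ChIP reads in its region, not scaled to library size, numbered 1501 and 1363 in the wild-type libraries, and 740 and 1835 in those of *Uhrf1* KO. Replicate 1 held 6703081 reads inside all its peaks, against 20875020 and 19543177 in the wild-type libraries, so its raw count is not comparable with theirs. In a fit of regions called over at least 50% of their length in each library, the log2 change there was 0.15 (adjusted p = 0.559 in edgeR). The others above both wild-type libraries in both *Uhrf1* KO libraries were *Krtap13*, with 12.9% in both wild-type libraries against 16.5% and 27.6%, and *Krtap19-4*, with 11.6% and 13.6% against 31.9% and 30.0%. *Krtap16-3* had 32.9% and 31.0% in wild-type against 78.3% and 32.9% in *Uhrf1* KO cells, so its groups met at 32.9%. *Krtap5-1*, near *Krtap5-5*, had 45.1% and 54.5% against 32.0% and 20.8%.

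Read counts were tested where peaks covered at least 80% of a region in every library compared. In the fit of *Uhrf1* KO against wild-type libraries, 5.54% of all regions were lower and 3.2% higher in edgeR's quasi-likelihood test at a false discovery rate of 0.05, and no keratin region reached that coverage in all 4 libraries, so none entered it. With at least 50% coverage 10 keratin regions entered, and 0 passed. DESeq2 was run only at 80%, where 0 entered too. In the 50% fit, 3 of the 10 had an unadjusted p under 0.05 in edgeR, against 3090 of all 16321 regions. Of those 16321 regions, 123 were lower and 67 higher past the false discovery rate. Of the 10 keratin regions, 8 had lower counts. The lowest p was at *Krt34* and *Krt31*, type I hair keratins, spanning 100045801 to 100051000 of chromosome 11, where the log2 change was -0.57 and the adjusted p 0.143 in edgeR.

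Without *Uhrf1* KO replicate 1, 28 keratin regions could be tested in replicate 2 against the wild-type libraries, on the assumption that the lone library varies as the wild-type ones do. In edgeR 13 of the 28 were lower, against 14.8% of all regions, and 1 was higher, against 19.4%. The median log2 change was -0.36 over the 28 and -0.02 over all regions tested. DESeq2 called 5 lower and 0 higher, against 2.14% and 4.81% of all regions. Without the length offset edgeR called 17 lower and 2 higher, against 16.3% and 20%. The lower regions overlapped the windows of keratins of several tissues. At *Krt5*, reads per kb called were 44.4 and 45.5 in the wild-type libraries and 28.2 in *Uhrf1* KO replicate 2, a log2 change of -0.68 (adjusted p = 1.4e-08 in edgeR). The region from 77701601 to 77716800 of chromosome 10 overlapped the window of *Krtap12-1* but not the gene, at 77720586 to 77721256. Its reads per kb called were 70.3 and 59.8, and then 40.3 (log2 change -0.69). At *Krt6b*, the region beside the gene from 101673401 to 101675200 held 144 and 141 ChIP reads in wild-type cells and 68 in *Uhrf1* KO replicate 2, a log2 change of -0.90. At *Krt80* the log2 change was -0.72, at *Krt78* it was -0.59, and at *Krtap1-3* it was -0.83.

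The region that was higher in replicate 2 lay beside *Krtap16-3*, on chromosome 16 from 88964401 to 88969400. It overlapped the window but not the gene, at 88962304 to 88962873. Its reads per kb called were 88.5 and 93.5 in wild-type cells and 127 in *Uhrf1* KO replicate 2, a log2 change of 0.48 (adjusted p = 5.272e-05 in edgeR), and it did not pass in DESeq2. At *Krtap5-5* the log2 change was 0.23 with an adjusted p of 0.0551 in edgeR. At the *Krt14* region it was -0.09, at *Krt86* and *Krt83* -0.11, and at *Krt13* and *Krt15* -0.13, and none of these passed. The calls rest on 1 *Uhrf1* KO library, and the 80% rule keeps only regions that stayed largely called.

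**Figure D5:**
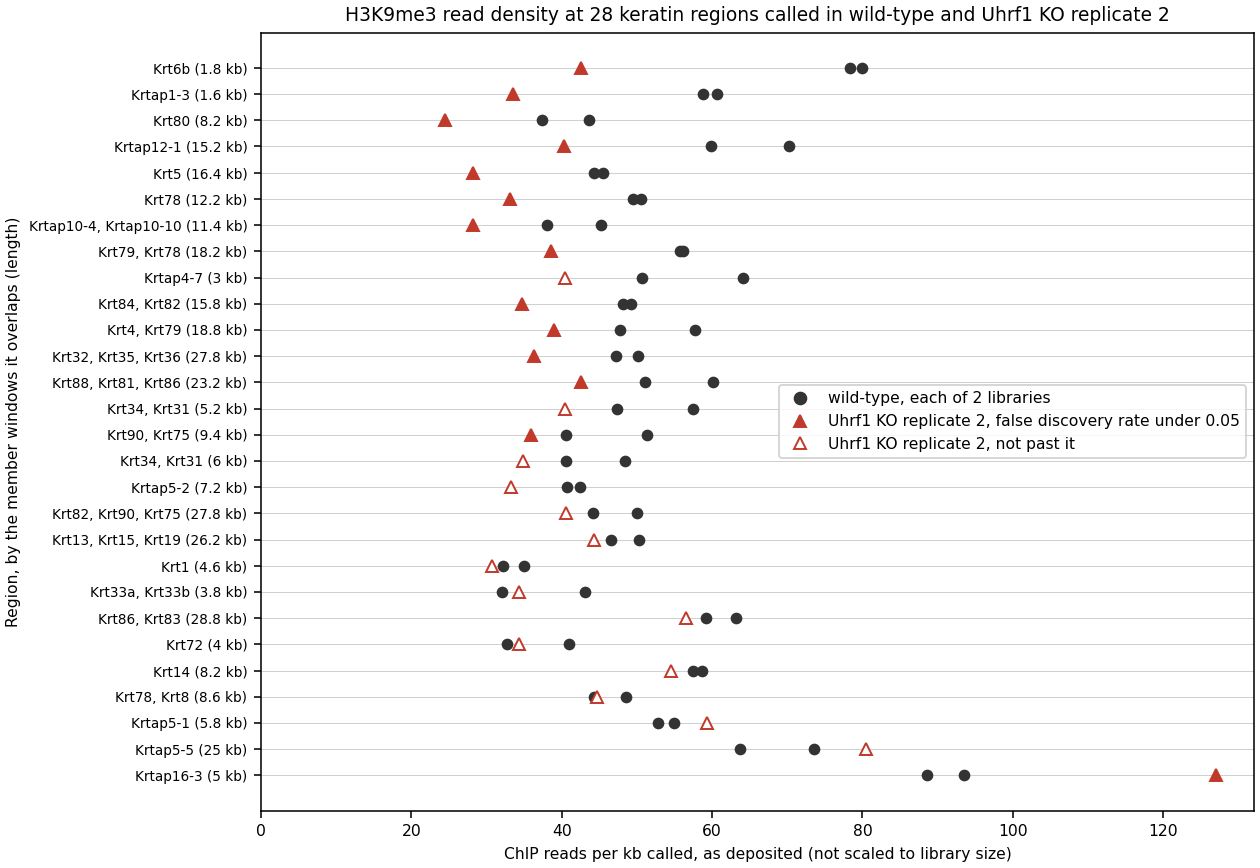
ChIP reads per kb called (horizontal, as deposited, not scaled to library size) at the 28 keratin regions tested in Uhrf1 KO replicate 2 against wild-type cells. Circles are the 2 wild-type libraries and triangles Uhrf1 KO replicate 2, filled where the region passed a false discovery rate of 0.05 in edgeR. The triangle lies left of both circles at Krt5 (28.2 against 44.4 and 45.5) and right of both beside Krtap16-3 (127 against 88.5 and 93.5).

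In *Dhx9* KO cells the keratin clusters kept most of their called share. These comparisons use the same wild-type libraries as those of *Uhrf1* KO, so the results of the knockouts are not independent. The mean over the 108 genes was 40.1% and 37.8%, against 40.2% and 40.9% in wild-type cells, and over all genes it was 18.8% and 15.1%. Of 82 genes with a peak in both wild-type libraries, 1 lost its peaks, against 2.9% of all such genes, and of 16 without, 1 gained one, against 5.11%. Without wild-type replicate 1 or without *Dhx9* KO replicate 1 the number lost was 7, without *Dhx9* KO replicate 2 it was 3 and without wild-type replicate 2 it was 2. Without *Dhx9* KO replicate 1 the number gained was 2. Here too no value over all genes was computed with a library left out. Both *Dhx9* KO libraries were below both wild-type libraries at 19 of 94 genes, against 23% of all genes, and above both at 13, against 14.1%. The shares were near those of all genes.

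The gene that lost its peaks was *Krtap22-2* on chromosome 16. Its called share was 15.4% and 9.63% in wild-type, 0% and 13.5% in *Uhrf1* KO, and 0% in both *Dhx9* KO libraries, and its peaks held 68 and 56 ChIP reads in wild-type cells. The gene that gained was *Krtap31-1* on chromosome 11, with 0% in both wild-type libraries, 0% and 0.82% in *Uhrf1* KO and 15.4% and 30.0% in *Dhx9* KO cells. *Krtap7-1*, of the glycine- and tyrosine-rich class, had 40.7% and 22.6% in wild-type, 10.3% and 14.3% in *Uhrf1* KO, and 16.9% and 0% in *Dhx9* KO cells. Its values were below both wild-type libraries in all 4 knockout libraries. *Krtap11-1* had 43.8% and 62.0%, then 23.6% and 45.3%, then 54.6% and 39.8%, with groups that overlap.

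By role, the type II hair keratins averaged 88.2% and 77.4% in *Dhx9* KO cells, the type II inner root sheath keratins 77.4% and 72.1%, and the type I hair keratins 57.3% and 69.1%. The 4 type I inner root sheath keratins averaged 7.48% and 7.26%, below the 14.5% and 17.5% of wild-type cells, and *Krt25* had 6.89% and 0%. The chromosome 10 genes averaged 67.5% and 59.7%, below the 79.2% and 76.9% of wild-type cells, with *Krtap12-1* at 63.9% and 48.9%. Both groups were lower in each *Dhx9* KO library than in each wild-type library. The chromosome 11 Krtap genes averaged 21.7% and 22.5%, above the 18.5% and 17.7% of wild-type cells. Among genes above both wild-type libraries were *Krt5*, with 75.2% and 69.5%, *Krt8*, with 53.5% and 46.2%, and *Krtap5-3*, with 75.5% and 89.7% against 44.8% and 54.9%. *Krt82* and *Krt71* were below both, with 82.5% and 74.3%, and 85.4% and 76.0%.

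By merged regions, 4 of 96 keratin regions were lost in *Dhx9* KO cells, against 6.97% of all regions, and 3 of 87 gained, against 8.74%. The lost regions lay at *Krt27*, *Krtap4-2*, *Krtap22-2* and *Krtap7-1*, and the gained ones at *Krtap31-2*, *Krt8* and *Krtap11-1*. Read counts could be tested at 13 keratin regions, and 0 passed a false discovery rate of 0.05 in edgeR, with 0 at an unadjusted p under 0.05 and 0 in DESeq2. Over all regions tested, 0.553% were lower and 0.0425% higher, and 574 of 4701 had an unadjusted p under 0.05 in edgeR. The median log2 change was 0.04 over the 13. The lowest p was at the region over *Krt78* and *Krt8*, on chromosome 15 from 101990801 to 101999600, with 350 and 345 reads in wild-type and 509 and 423 in *Dhx9* KO cells, a log2 change of 0.32 and an adjusted p of 0.408 in edgeR. The next was at *Krtap4-1*, with 80 and 73 reads against 60 and 63 and a log2 change of -0.31. With 1 *Dhx9* KO library left out, the other was assumed to vary as the wild-type ones do. Without *Dhx9* KO replicate 2, 1 of 31 keratin regions was lower and 4 were higher, against 9.79% and 4.47% of all regions. Without *Dhx9* KO replicate 1, 1 of 23 was lower and 0 were higher, against 4.07% and 4.53%.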

How the data were processed

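H3K9me3 ChIP-seq peak lists of wild-type, *Uhrf1* KO and *Dhx9* KO mESCs were analysed, with 2 libraries per genotype. The other 12 of the 18 samples were not analysed here. Groups and replicate numbers were taken from the labels.

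Per the methods, the authors aligned reads with Bowtie2 to mm10, subsampled them with SAMtools and called peaks per library with epic2 in bins of 200 bp, keeping duplicates. The submitters' processing notes name Bowtie2 2.3.4.3, Picard 2.8.0, SICER 0.0.51 and deepTools 3.0.2. For every peak the deposited lists hold raw counts of reads in the ChIP and in its background. They also hold the p-value of the authors' peak caller, its false discovery rate and the authors' log2 fold over background, which takes library size into account. The deposited score is the capped log2 fold and was not used. The deposited annotation includes the reporter on chromosome 2, where no keratin gene lies.

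Windows, called shares and merged regions were computed with Python 3.11.15, numpy 2.4.6 and pandas 2.3.3, and positions are 1-based. Lost means called in each wild-type library and uncalled in each library of the knockout, and gained means the opposite. Counts were summed over regions called over at least 80% of their length in each library and tested over all regions in R 4.3.3 with edgeR 4.0.16 (TMM on counts per called length, quasi-likelihood test, false discovery rate of 0.05 after Benjamini-Hochberg). DESeq2 1.42.0 was the other test. The fit was tested on simulated data with 200 changed regions. The filter on low counts removed 0 regions. Both tests take in counting error and the spread between libraries of a genotype, estimated from 2 libraries each. GC content, repeats and upstream sequences come from the mm10 reference and RefSeq's promoter table, where 85 of the 108 genes matched.

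The genes and lists were chosen with earlier results of these data known. Named genes were, per chromosome, the 3 with the largest wild-type called share, up to 6 lost or gained per knockout, 16 genes named whatever their values, the genes of regions past the threshold or with the lowest p per fit, and the strongest and longest regions. Genes outside this rule are named where a count of 13 or fewer is spelled out or as said in the text. Alternatives were an FDR of at most 1e-10, a log2 fold of at least 1, 70195 peaks per list, no flank or 10 kb, at least 1000 bp called, other fits and leaving out each library. Amino acid shares of the proteins were not used here.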

Additional observations from a re-analysis of the deposited data

How the results depend on the processing

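The number of keratin genes with a peak in both wild-type libraries, 82, stayed within 1.5 times under each alternative run, from 64 to 90. The 9 genes lost in *Uhrf1* KO cells became 14 at an FDR of at most 1e-10, with an equal number of peaks per list and with no flank, 15 at a log2 fold of at least 1, and 3 with a flank of 10 kb. The 0 gained there became 1 at that log2 fold and with equal numbers of peaks. The 1 lost in *Dhx9* KO cells became 3 at that FDR, at that log2 fold and with at least 1000 bp called, 4 with no flank, and 2 with equal numbers or 10 kb. The 1 gained became 0 at that FDR and with no flank. Genes lost or gained thus depend on the peak threshold and the window. Lost and gained shares over all genes were not computed under these alternatives or with a library left out.

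Leaving out each library in turn gave 82 to 89 genes with both wild-type peaks, 9 to 30 lost and 0 to 2 gained in *Uhrf1* KO, and 1 to 7 lost and 1 to 2 gained in *Dhx9* KO cells. Keratin regions past the read-count threshold ranged from 0 to 14 in *Uhrf1* KO, with the 14 from replicate 2 alone, where DESeq2, chosen after seeing the data, gave 5. In *Dhx9* KO they ranged from 0 to 5. Same-numbered libraries share only a number: the deviations from their group means correlated by 0.065 over 2528 regions and by -0.069 over 4701. With the replicate number as a block, 0 and 0 keratin regions passed. In *Uhrf1* KO 0 were tested, so that 0 says nothing of the block, and in *Dhx9* KO 13 were tested.

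The called shares of the named genes moved by more than the replicate SD in 34 of 111 values at the stricter FDR, 45 at the log2 fold, 39 with equal numbers, 59 with no flank and 40 with 10 kb. A share of 0 means no called peak: the smallest called peak had 14 ChIP reads in *Uhrf1* KO replicate 1 and 25 to 27 in the other libraries.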
